A study of Mus musculus with 4 samples.

Results

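Intraepithelial lymphocyte genes were examined in epithelial crypts cut from mouse intestine by laser capture microdissection. The set was defined by name and not by a cut on measured values, but it was chosen with earlier results of these data known. It held 9 genes, namely Ptprc, Cd3g, Cd3e, Cd8a, Cd7, Gzma, Gzmb, Ccl5 and Lck, and took every probe set annotated to 1 of them and to no other gene. Of the 9 genes, 8 were measured, among 18193 genes with a probe set of their own, by 13 of the 45037 probe sets that remained without controls. Lck was not analysed here.

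The study held 4 single-colour arrays. Crypts of beta-catenin mutant mice, in which the gene had been deleted through tamoxifen 2 days before collection, were on 2 arrays, and crypts of control mice were on the other 2 arrays. Total RNA was extracted with a kit made for few cells, and the mRNA was amplified in 2 rounds. The sources used here give no strain, age, Cre line, treatment of the control mice, gut segment or number of pooled mice. Whether the arrays of a group stem from separate mice is not stated either, so p-values cover just the spread among these arrays, and that spread may be technical.

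Intraepithelial lymphocytes are T cells that sit between the epithelial cells of the gut, most of them in the villi and fewer in the crypts. Many carry the CD8 alpha chain, are held to the epithelium through the integrin CD103 and are armed with granzymes, the proteases that killer cells deliver into their targets. The genes of the set are also used by other T cells and partly by natural killer cells, so their transcripts mark lymphocytes in the captured tissue and not this cell type alone.

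Epithelial markers were bright in the captures. All 11 measured epithelial markers, among them the tight junction gene Cldn3, Krt20 and Vil1, passed the filter on dim signal, and their mean log2 signal was 11.35 and 11.29 on mutant replicates 1 and 2 and 11.17 and 11.24 on control replicates 1 and 2. The filter was also passed by 12 of 14 stromal and vessel markers and by 13 of 14 macrophage and dendritic cell markers. Mean log2 signal of the stromal and vessel list was 7.04 and 7.34 in mutants and 6.7 and 7.07 in controls. The captures were thus not shown to be epithelium alone. Itgae, the gene of CD103, had deposited signals of 266.1 and 72.3 in mutants and 221.2 and 75.4 in controls and passed the filter. Of 19 other T cell receptor and signalling genes 12 stayed below it, among them Cd3d and Cd2, which most T cells use, and so did Cd4 and Foxp3, so that these levels do not tell T cell types apart. Itgae, Cd3d, Cd2, Cd4 and Foxp3 were singled out after their values had been seen. Mutant replicate 1 stood apart through pancreatic enzyme transcripts, with a median log2 signal of 12.70 over 13 such genes there, against 4.53 on mutant replicate 2 and 4.63 and 4.72 on control replicates 1 and 2. The deleted gene itself, Ctnnb1, had signals of 5229 and 3449 in mutants and 4700 and 5997 in controls on its brightest probe set, a difference of -0.56 on the log2 scale (SE 0.22; limma, adjusted p = 0.785). After normalisation the groups did not overlap there, at 12.02 and 11.85 in mutants and 12.43 and 12.56 in controls. Of all probe sets tested, 18.9% were lower in mutants with no overlap. The other tested probe set of Ctnnb1 (1450008_a_at) overlapped between the groups and differed by 0.38 (SE 0.50). Which exons were removed is not stated in the labels.

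The promoters of the granzyme pair are shown because Gzma and Gzmb varied side by side over the arrays. Those of the CD3 pair are shown because Cd3g and Cd3e, on the same chromosome with 1 annotated gene between them, did so less closely. Both were higher on replicate 1 than on replicate 2 in either group. Cd3g on mutant replicate 2 (signal 11.9) and Cd3e on control replicate 2 (4.24) were below the level of the filter, which limits this contrast. The sequences run 5′ to 3′ on the strand of the gene, from 250 bases before to 50 bases after the start site, and come from RefSeq with build GRCm38.p6. The windows are chr13:113100932-113101231 for Gzma, chr14:56262285-56262584 for Gzmb, chr9:44980382-44980681 for Cd3g and chr9:45009562-45009861 for Cd3e, all on the minus strand. Capitals mark matches to any of the motifs searched.
Gzma: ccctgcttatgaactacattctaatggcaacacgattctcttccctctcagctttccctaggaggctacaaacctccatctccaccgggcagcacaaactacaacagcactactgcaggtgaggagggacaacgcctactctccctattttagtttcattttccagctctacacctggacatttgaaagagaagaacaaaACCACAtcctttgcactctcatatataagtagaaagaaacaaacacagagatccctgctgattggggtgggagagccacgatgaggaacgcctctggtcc
Gzmb: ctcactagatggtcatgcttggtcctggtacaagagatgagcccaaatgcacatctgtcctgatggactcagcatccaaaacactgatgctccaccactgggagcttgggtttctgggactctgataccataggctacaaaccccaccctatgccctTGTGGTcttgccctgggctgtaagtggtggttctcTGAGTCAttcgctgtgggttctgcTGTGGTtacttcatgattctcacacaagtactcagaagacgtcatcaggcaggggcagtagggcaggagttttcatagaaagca
Cd3g: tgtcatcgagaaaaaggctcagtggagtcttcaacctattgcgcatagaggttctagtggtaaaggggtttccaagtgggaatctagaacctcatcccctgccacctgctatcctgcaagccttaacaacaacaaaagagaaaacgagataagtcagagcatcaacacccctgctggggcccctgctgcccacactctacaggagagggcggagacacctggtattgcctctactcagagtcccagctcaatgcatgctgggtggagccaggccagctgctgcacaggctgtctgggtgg
Cd3e: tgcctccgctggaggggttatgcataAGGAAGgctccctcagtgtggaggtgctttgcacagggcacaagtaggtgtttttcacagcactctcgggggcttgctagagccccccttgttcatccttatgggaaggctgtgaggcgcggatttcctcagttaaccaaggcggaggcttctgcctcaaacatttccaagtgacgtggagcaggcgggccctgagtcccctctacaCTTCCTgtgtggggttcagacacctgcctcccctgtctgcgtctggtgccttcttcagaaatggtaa

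The motifs were searched on both strands, and no matches overlapped in these 4 windows. The RUNX motif TGTGGT, bound by factors that shape CD8 T cells, matched Gzmb at -93 to -88 and -34 to -29 relative to the start site and matched Gzma on the opposite strand at -50 to -45. It is present in 16.8% of all 32851 RefSeq promoter windows of this length. The AP-1 motif TGANTCA matched Gzmb at -58 to -52 (7.81% of windows). The ETS motif AGGAAG matched Cd3e at -224 to -219 and on the opposite strand at -17 to -12 (35.4% of windows). The cyclic AMP motif TGACGTCA (1.79% of windows) and TATAAA (13.6% of windows) had no match in the 4 windows, and in the Cd3g window none of the 5 motifs matched. These matches describe the letters and do not show binding.

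No intraepithelial lymphocyte gene passed the test between mutant and control crypts, and the arrays of each group lay far apart. Signals were compared as log2(signal + 5) after quantile normalisation, with limma over the 22519 probe sets at or above the median mean signal (4.79 on that scale). All 8 genes had a probe set past that filter, and 10 of their 13 probe sets did. Of the 8 genes, 0 passed at an adjusted p under 0.05 and 0 at an unadjusted p under 0.05. Over all probe sets tested, 0% passed the adjusted test, and 1415 (6.28%) had an unadjusted p under 0.05. A permutation over 2 arrays against 2 could not go below an exact two-sided p of 0.333. Each gene is described by its brightest probe set on average. On that basis 6 genes were higher in mutants and 2 lower, with a median difference of 0.40 on the log2 scale, against a median of 0.00 over all probe sets tested. That median was -0.29 without mutant replicate 1 and -0.03 without control replicate 2. A change in the number of lymphocytes and a change in RNA per lymphocyte cannot be told apart in such samples.

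Ptprc encodes CD45, the phosphatase on the surface of all white blood cells. Its brighter probe set (1422124_a_at) had signals of 781.6 and 208.9 in mutants and 364.7 and 206.1 in controls. Mutant replicate 1 was the highest array and the other mutant array lay between the controls. The log2 signal averaged 8.64 ± 0.82 in mutants and 8.14 ± 0.62 in controls (SD, n = 2 each), a difference of 0.50 (SE 0.49; limma, adjusted p = 0.886) that was -0.07 without mutant replicate 1. The second probe set (1440165_at) was below the filter, at 21.2 and 24.4 in mutants and 29.4 and 5.33 in controls, with overlapping groups.

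Cd3g and Cd3e encode chains of the CD3 complex, which passes the signal of the T cell receptor into the cell. Cd3g had signals of 158.1 and 11.9 in mutants and 98.3 and 34.4 in controls. The mutant arrays were thus the highest and the lowest of the 4, and the difference was -0.37 (SE 0.84; limma, adjusted p = 0.963). It was 1.05 without mutant replicate 2 and 0.21 without control replicate 1. Cd3e had signals of 51.8 and 30.0 in mutants and 36.2 and 4.24 in controls. After normalisation both mutant values, 5.68 and 5.37 on the log2 scale, lay above both control values, 5.05 and 3.38, and the difference of 1.30 (SE 0.61) had an adjusted p of 0.789 by limma. Cd3e was the 1 gene of the 8 whose groups did not overlap, against 17.3% of all probe sets tested with mutants higher and 18.9% with mutants lower. It was also the 1 gene with no overlap and a difference of at least 2-fold, a rule that 2.26% met with mutants higher and 2.63% with mutants lower. Its mean of 4.87 was just inside the filter, whose nearest probe set outside it among these genes was 1440165_at of Ptprc at 4.52. The mutant mean of 5.52 carried Cd3e past the filter, while its control mean of 4.22 lay below that level. The missing overlap and the fold therefore lend no support to a difference in Cd3e. As deposited, Cd3e overlapped between the groups.

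Cd8a encodes the alpha chain of CD8, the co-receptor of killer T cells, and had 5 probe sets. The brightest on average (1440164_x_at) had signals of 78.8 and 39.6 in mutants and 60.5 and 36.9 in controls, a difference of 0.30 (SE 0.39; limma, adjusted p = 0.922). The suffix x marks probes that may also bind other transcripts. The probe set 1425335_at had 112.5 and 29.9 in mutants and 55.0 and 18.9 in controls, with a difference of 0.77 (SE 0.54), and 1444078_at had 118.5 and 26.0 in mutants and 73.2 and 16.5 in controls, with a difference of 0.55 (SE 0.65) that was -0.21 without mutant replicate 1 and -0.19 without control replicate 2. In these 3 probe sets mutant replicate 1 was the highest, control replicate 2 the lowest, and the groups overlapped. The remaining pair was below the filter and was not tested. Of these, 1451673_at had 28.2 and 22.2 in mutants and 12.2 and 1.09 in controls with no overlap, and 1440811_x_at had 22.1 and 9.28 in mutants and 19.6 and 0.779 in controls. All 5 differences were above 0, from 0.30 to 1.71.

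Cd7 encodes a surface protein of T cells and natural killer cells. It had signals of 54.9 and 7.15 in mutants and 30.9 and 34.6 in controls. The controls lay between the mutant arrays, and the difference was -0.42 (SE 0.68; limma, adjusted p = 0.940), or 0.60 without mutant replicate 2 and -1.44 without mutant replicate 1. It was the 1 gene of the 8 with control replicate 2 above control replicate 1.

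Gzma and Gzmb encode granzymes A and B. Gzma had signals of 3142 and 337.2 in mutants and 1383 and 381.3 in controls. The log2 signal averaged 9.99 ± 1.78 in mutants and 9.58 ± 1.40 in controls (SD, n = 2 each), a difference of 0.41 (SE 0.84; limma, adjusted p = 0.956). Gzmb had signals of 355.1 and 60.0 in mutants and 186.6 and 61.5 in controls, with means of 7.24 ± 1.29 in mutants and 6.85 ± 1.02 in controls (SD, n = 2 each) and a difference of 0.40 (SE 0.66; limma, adjusted p = 0.942). In both genes the replicate numbered 1 was high and the replicate numbered 2 low in either group. The sign of both depended on the arrays kept. Without mutant replicate 1 the difference was -0.85 for Gzma and -0.51 for Gzmb, and without control replicate 2 it was -0.58 for Gzma and -0.32 for Gzmb.

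Ccl5 encodes a chemokine that memory and killer T cells store and release and that draws in further T cells. It had signals of 1364.5 and 202.4 in mutants and 320.1 and 106.3 in controls. Mutant replicate 1 was highest, and mutant replicate 2 lay between the controls. The log2 signal averaged 9.02 ± 1.42 in mutants and 7.60 ± 1.11 in controls (SD, n = 2 each). The difference of 1.42 (SE 0.71), or 2.68-fold, was the highest among the 8 genes and did not pass (limma, adjusted p = 0.790). It was 0.41 without mutant replicate 1 and 2.43 without mutant replicate 2.

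**Figure D1:**
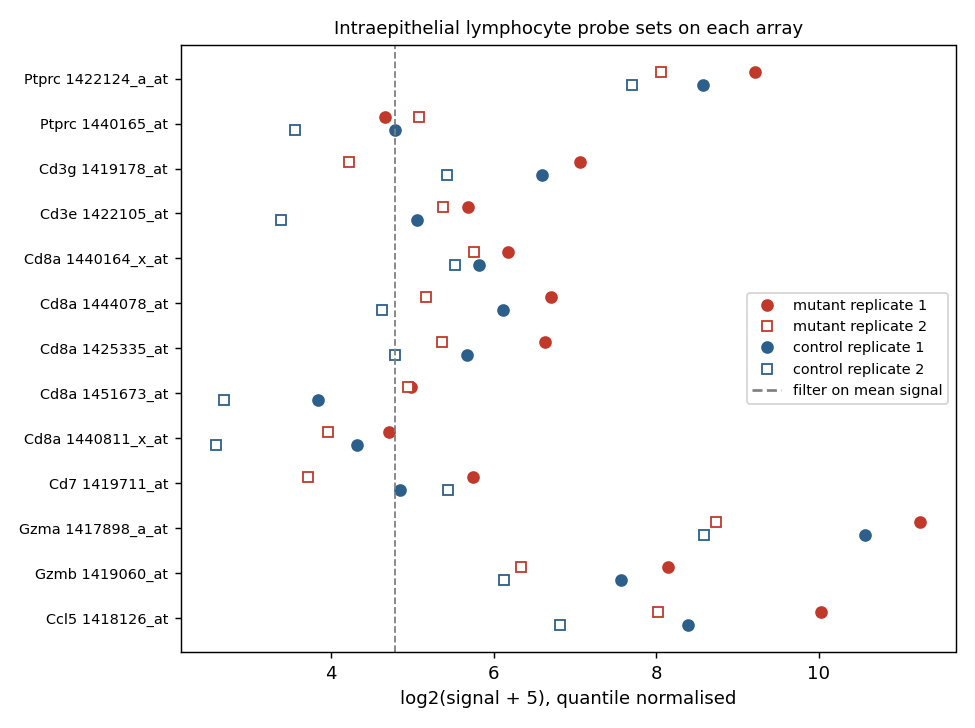
Quantile-normalised log2(signal + 5) of the 13 probe sets on each array, with mutant arrays in red and control arrays in blue, filled circles for replicate 1 and open squares for replicate 2; the dashed line is the filter on the mean signal (4.79). Filled circles lie to the right of open squares of the same colour in most rows, and the colours overlap in 9 of the 10 probe sets kept.

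The gaps between arrays of the same group were larger than the differences between groups for most of these genes. On mutant replicate 1, 6 of the 8 genes were at least 2-fold higher than on mutant replicate 2, against 6.43% of all probe sets tested. These were Cd3g (7.20-fold), Gzma (5.73-fold), Cd7 (4.09-fold), Ccl5 (4.04-fold), Gzmb (3.53-fold) and Ptprc (2.23-fold). For Cd3g and Cd7 the signal on mutant replicate 2 lay below the level of the filter, so that the pseudocount sets the size of the gap, which with a pseudocount of 16 was 4.89-fold for Cd3g and 2.68-fold for Cd7. On control replicate 1, 5 of the 8 were at least 2-fold higher than on control replicate 2, against 7.57% of all probe sets tested, namely Gzma (3.95-fold), Cd3e (3.18-fold), Ccl5 (2.97-fold), Gzmb (2.71-fold) and Cd3g (2.23-fold). Cd3e was also below that level on control replicate 2, and with a pseudocount of 16 it was 2.06-fold and Cd3g 1.98-fold. Cd3g, Gzma, Gzmb and Ccl5 met the rule in both groups, which 1.06% of all probe sets did. In the opposite direction 0 of the 8 genes reached 2-fold in either group, against 5.39% of probe sets in mutants and 5.62% in controls. Both gaps exceeded the difference between groups in 6 of the 8 genes and in 40.2% of all probe sets. The exceptions were Cd3e and the brightest probe set of Cd8a, while the other 2 tested probe sets of Cd8a met the rule, as did 8 of all 10 tested probe sets of these genes. There is 1 array behind each side of such a gap, so it has no test.

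**Figure D2:**
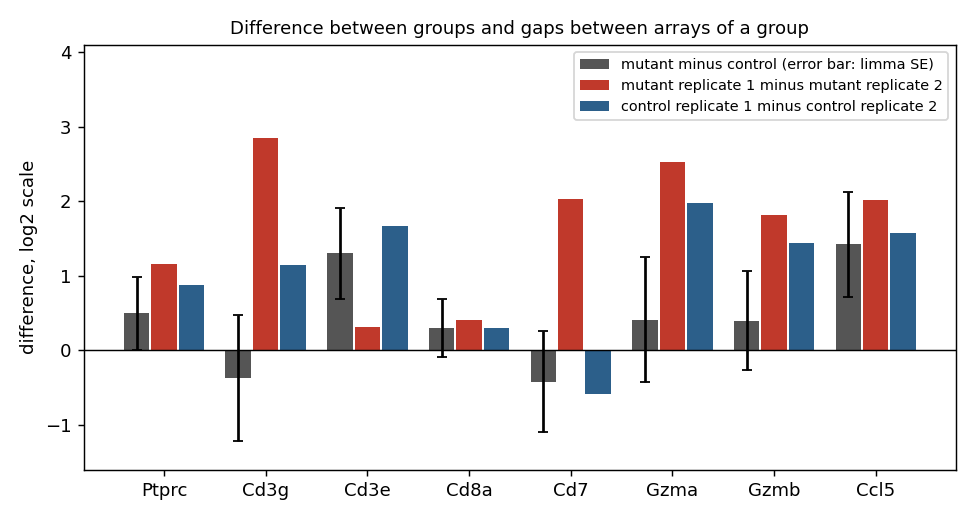
Bars give, for the brightest probe set of each of the 8 genes on the log2 scale, the mutant minus control difference with its limma SE (grey), the gap between the mutant arrays (red) and the gap between the control arrays (blue). The red and blue bars are both longer than the grey bar for Ptprc, Cd3g, Cd7 (blue and grey below 0), Gzma, Gzmb and Ccl5. For Cd8a the red bar is longer (0.41 against 0.30), and for Cd3e only the blue bar is (1.67 against 1.30).

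Most markers of villus enterocytes, the mature absorptive cells above the crypts, moved with the lymphocyte genes from array to array. Replicate 1 was higher in both groups for 11 of 15 enterocyte markers and for 7 of the 8 lymphocyte genes. Over 15 measured enterocyte markers the median gap of replicate 1 over replicate 2 was 1.12 on the log2 scale in mutants and 1.25 in controls, beside 1.92 in mutants and 1.30 in controls for the 8 lymphocyte genes and -0.04 in mutants and -0.07 in controls over all probe sets tested. The summed deposited signal of the enterocyte markers was 88140 and 51761 in mutants and 55269.5 and 42449 in controls, and all 15 passed the filter. These sums are not normalised and carry the brightness of the whole array. Over all probe sets tested the sum was 12272529 and 8792120 in mutants and 8902329 and 9682050 in controls. The part of enterocyte content in the lymphocyte values was not tested. By its median the pancreatic list was high on mutant replicate 1 alone, and the lymphocyte genes were high on both arrays numbered 1. The part of pancreatic content in the lymphocyte values was not tested either. Epithelial markers gave median gaps of -0.01 in mutants and 0.02 in controls, and stromal and vessel markers -0.20 in mutants and -0.51 in controls.

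Other lymphocyte genes gave a smaller median gap, but many of them were dim. The median over 23 measured genes of gut lymphocyte homing and effector function was 0.56 between the mutant arrays and 0.70 between the control arrays, and replicate 1 was higher in both groups for 13 of the 23. The 19 other T cell receptor and signalling genes gave 0.22 in mutants and 0.44 in controls, with 7 of the 19 higher on replicate 1 in both groups. Below the filter were 8 of the 23 and 12 of the 19 genes, whereas all 8 genes of the set passed it. The medians of these lists are thus not like measures. Itgae was 2.27-fold higher on replicate 1 in mutants and 2.71-fold in controls, and Nkg7, a granule protein gene of killer cells, was 2.23-fold higher in mutants and 2.16-fold in controls. The natural killer receptor gene Klrd1 was 2.74-fold higher in mutants and 1.72-fold in controls, and Cd160, a receptor gene of intraepithelial lymphocytes, was 2.51-fold higher in mutants and 1.48-fold in controls. These 4 genes were chosen after their values had been seen. Others went the opposite way between the mutant arrays, such as Tbx21 at -0.42 on the log2 scale. Il2rb did so at -1.39, but it was below the filter, with signals of 2.70 and 13.2 in mutants. Between the groups, Itgae differed by 0.08 (SE 0.57), Nkg7 by -0.14 (SE 0.54), Klrd1 by 0.13 (SE 0.56) and Cd160 by -0.59 (SE 0.55). Genes common to all white blood cells gave median gaps of 0.62 in mutants and 0.18 in controls over 14 genes, and macrophage and dendritic cell markers gave 0.45 in mutants and 0.04 in controls over 14 genes.

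**Figure D3:**
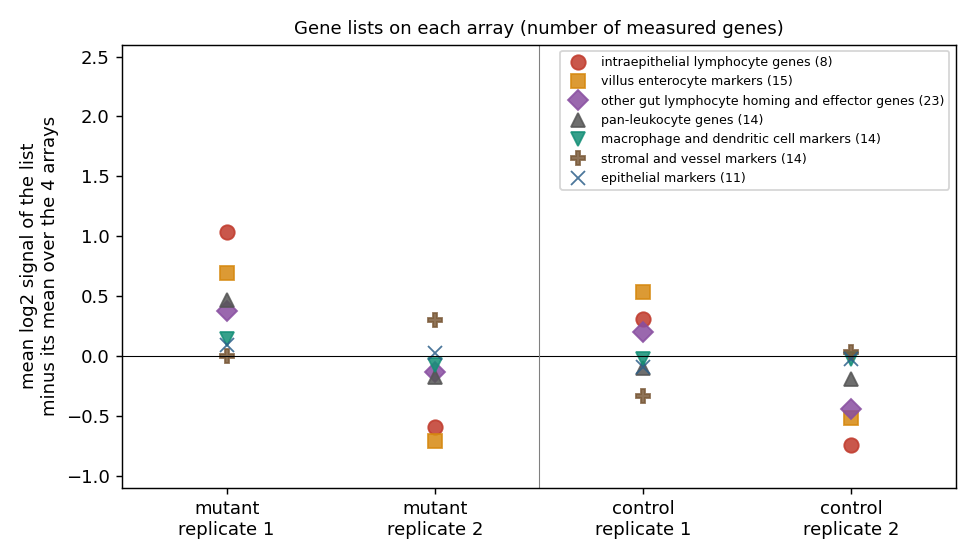
Mean log2 signal of each gene list on each array, minus the mean of that list over the 4 arrays; mutant arrays are on the left, control arrays on the right. The lymphocyte genes (red circles) and the villus enterocyte markers (orange squares) lie above 0 on both arrays numbered 1 and below 0 on both arrays numbered 2, while epithelial markers stay near 0.

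Between mutants and controls, 0 genes of any neighbouring list passed the test (limma, adjusted p under 0.05). Among 19 other T cell receptor and signalling genes, 16 were higher in mutants and 3 lower, with a median difference of 0.35, but only 7 of the 19 passed the filter, and the median was 0.21 without control replicate 2 and 0.64 without mutant replicate 2. Ptpn22, a phosphatase that restrains T cell receptor signalling, differed by 1.10 (SE 0.46; limma, adjusted p = 0.785) and was the 1 gene of that list with an unadjusted p under 0.05. Homing and effector genes gave 14 higher and 9 lower of 23, with a median of 0.13 that was -0.28 without control replicate 2 and 0.43 without mutant replicate 2. The T-box factor gene Tbx21 differed by 0.85 (SE 0.44) and the integrin gene Itgb7 by 0.73 (SE 0.43). Genes of all white blood cells gave 10 higher and 4 lower of 14 (median 0.25), among them the selectin ligand gene Selplg at 0.86 (SE 0.37), and the median was -0.13 without mutant replicate 1. Helper and innate lymphoid markers gave 5 higher and 4 lower of 9 (median 0.01, or 0.22 without mutant replicate 1), and only Il7r, the interleukin 7 receptor gene, passed the filter, at 0.86 (SE 0.39).

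B and plasma cell markers gave 4 higher and 6 lower of 10 (median -0.08, between -0.50 and 0.10 with an array left out, above 0 without mutant replicate 2 or control replicate 1), macrophage and dendritic cell markers 6 higher and 8 lower of 14 (median -0.02, between -0.07 and 0.18, below 0 only without mutant replicate 1) and mast cell markers 4 higher and 6 lower of 10 (median -0.28, between -0.57 and 0.02, above 0 only without mutant replicate 2). Stromal and vessel markers gave 9 higher and 5 lower of 14 (median 0.08, between 0.06 and 0.54), epithelial markers 7 higher and 4 lower of 11 (median 0.09, between 0.05 and 0.17) and villus enterocyte markers 9 higher and 6 lower of 15 (median 0.08, between -0.33 and 0.74, below 0 without mutant replicate 1 or control replicate 2). Pancreatic markers gave 12 higher and 1 lower of 13, with a median of 3.55 that was -0.48 without mutant replicate 1. Epithelial ligands and signals for intraepithelial lymphocytes gave 12 higher and 3 lower of 15, with a median of 0.44, or 0.00 when control replicate 2 was left out and 0.70 when control replicate 1 was.

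The lymphocyte genes were also set against each other within each array, which takes out what they share. For each of the 8 genes the centred log2 signal minus the mean of the other 7 was formed, a step chosen after the values had been seen and given with no test. Ccl5 stood at 0.77 and 0.34 in mutants and -0.26 and -0.86 in controls, a difference of 1.12. On this scale the groups did not overlap for Ccl5 and for Cd3g. The share of all probe sets that would separate on such a scale was not computed. In the plain log2 signal 17.3% of all probe sets tested separated with mutants higher and 18.9% with mutants lower. There the groups overlapped for both genes. The separation on the relative scale therefore lends no support to a difference in Ccl5 or Cd3g. With only Ptprc, Gzma and Gzmb as the yardstick the Ccl5 values were 0.58 and 0.40 in mutants and -0.42 and -0.56 in controls. The difference against the other 7 genes lay between 0.82 and 1.41 with each array left out in turn. Gzma and Gzmb differed by -0.04 and -0.05 on this relative scale, and Ptprc by 0.07. Cd3g stood at 0.23 and -1.16 in mutants and 0.52 and 0.41 in controls, a difference of -0.93. Its low value on mutant replicate 2 came from a signal of 11.9, below the level of the filter. Cd3e, Cd8a and Cd7 overlapped between the groups, with differences of 0.98, -0.16 and -0.99. Differences of about the size of that of Ccl5 were thus also seen in genes whose groups overlapped.

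**Figure D4:**
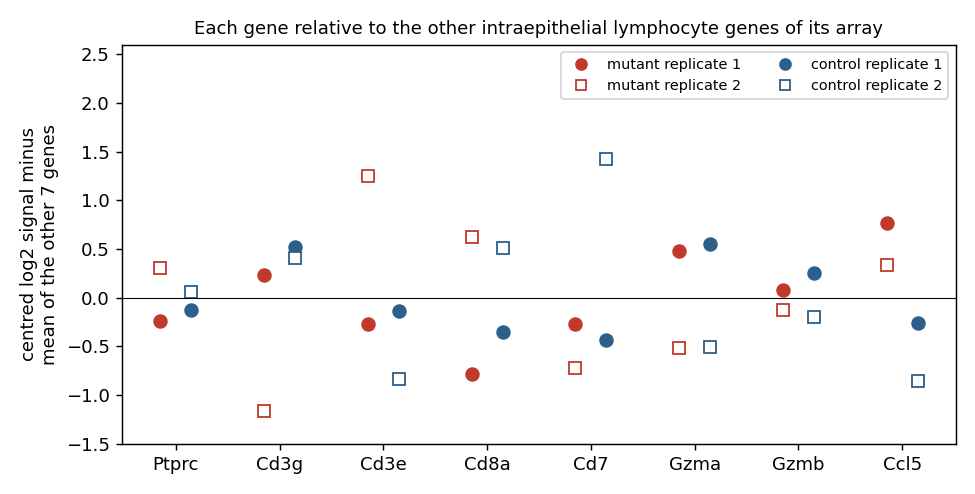
Centred log2 signal of each of the 8 genes minus the mean of the other 7 on the same array, with mutant arrays left of control arrays for each gene, in the symbols used for the single probe sets. The mutant values of Ccl5 (0.77 and 0.34) lie above the control values (-0.26 and -0.86), and those of Gzma, Gzmb and Ptprc interleave.

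The likeness of other genes was measured as the Euclidean distance between log2 profiles over the 4 arrays, each centred on its own mean. The mean profile of the 8 genes stood at 1.04 and -0.60 on mutant replicates 1 and 2 and at 0.30 and -0.75 on control replicates 1 and 2. Among the 8, Gzmb (distance 0.305) and Ptprc (0.366) followed it most closely, and Cd7 (1.47) and Cd3e (1.35) least. Of other genes the nearest were Gimap4, a guanosine triphosphatase gene of lymphocytes, at 0.142, Gpd2, which encodes the mitochondrial glycerol-3-phosphate dehydrogenase, at 0.146, and Ang4, an antimicrobial ribonuclease gene of Paneth and goblet cells, at 0.151. Acyp1 (0.152) and Kalrn (0.163) followed. Gimap4 had signals of 452.2 and 97.0 in mutants and 209.2 and 102.8 in controls. The ranking rests on 4 arrays and is a description.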

How the data were processed

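The authors deposited 1 table of linear intensities per probe set. MAS5 is the tool that the submitters' processing notes name, and its version, scaling target and detection calls were not given in the sources used. It subtracts mismatch signal, which makes dim probe sets noisy. The 64 control probe sets were left out. Symbols came from the platform annotation, and 34945 of 45037 probe sets had 1 symbol. Intensities were taken as log2(intensity + 5) and quantile normalised, since the trimmed means of the arrays differed by up to 1.53-fold. Fold changes on this scale understate those of dim probe sets. Probe sets under the 50th percentile of mean signal were left out of the test. Mutant and control were compared with limma 3.58.1 in R 4.3.3 (lmFit, eBayes with trend, 2 residual and 6.4 prior degrees of freedom), two-sided; p-values were adjusted by Benjamini-Hochberg over every probe set kept. The code was tested on simulated data.

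The members and all gene lists were chosen with earlier results of these data known. Named genes were every member, Ctnnb1, up to 4 genes with the smallest p in each list, and the 5 genes of nearest profile; exceptions are stated. Alternatives covered scaling, pseudocount, filter, variance model, replicate block, left-out arrays, averaging of probe sets and a call rule without p. Precision is limited by the number of arrays. Some genes of the lists were not analysed here. Same-numbered arrays of the groups are not said to share a mouse or a batch.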

Additional observations from a re-analysis of the deposited data

How the results depend on the processing

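Of the 8 measured genes 0 passed the limma test under every alternative that uses a p, among those its filter kept (4 of 8 with the filter at the 75th percentile, 6 without mutant replicate 1, where Cd3e and Cd7 dropped out, and 7 without mutant replicate 2 or control replicate 2), and 1 (Cd3e) met the rule of no overlap and at least 2-fold. Over all probe sets 0 passed as reported, 2 with the values as deposited (Bcl2l15 and the unnamed 1419591_at, noted after seeing the values), 102 with arrays centred on their medians and 1102 by the rule without p (1 of the 8 genes). With each array left out the count lay between 0 and 90, at 20 without mutant replicate 1 and 90 without mutant replicate 2; the lone array of a group is then assumed to vary like the other group. The cause of these shifts was not tested. The median over the 8 genes lay between 0.39 and 0.59 under other settings and between -0.29 and 1.19 with an array left out.

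With an array left out, the difference lay between -0.85 and 1.67 for Gzma, -0.51 and 1.31 for Gzmb, -1.80 and 1.05 for Cd3g, -1.44 and 0.60 for Cd7, -0.07 and 1.08 for Ptprc, -0.21 and 1.32 for the Cd8a probe set 1444078_at, and 0.47 and 2.14 for Cd3e, also where the filter left Cd7 or Cd3e without a test. Under the other settings no member with a test turned its sign.

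The deviations of same-numbered arrays correlated at 0.0339 over 22519 probe sets, and probe sets are no independent replicates. Whether replicate numbers pair the arrays for a part of the probe sets was not tested. With the replicate number as a block, 1 probe set passed in all (1419591_at) and 0 of the 8 genes. At an unadjusted p under 0.05 (limma) there were 1757 probe sets with the block and 1415 without it. With the block Ccl5 had an SE of 0.35 and an adjusted p of 0.493 (limma), within a range of 0.212 to 1 over all its alternatives.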

Other observations

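Among cell types that share the epithelium with these lymphocytes, the mucosal mast cell protease genes stood lower in mutant crypts. Mcpt2 had deposited signals of 80.0 and 24.4 in mutants and 125.8 and 162.4 in controls, and Mcpt1 94.8 and 25.8 in mutants and 114.7 and 172.2 in controls. Neither pair of groups overlapped. The log2 difference was -1.53 (SE 0.46; limma, adjusted p = 0.768) for Mcpt2 and -1.35 (SE 0.49; limma, adjusted p = 0.768) for Mcpt1, and 18.9% of all probe sets tested were lower in mutants with no overlap. The 2 transcripts are closely related in sequence and their probes may share signal. Of the other mast cell genes that were tested, the receptor gene Kit differed by -0.36 (SE 0.45) and the carboxypeptidase gene Cpa3 by 0.32 (SE 0.48), and the groups overlapped for both. The other 6 genes of that list were below the filter, 3 lower and 3 higher in mutants.

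Among epithelial ligands, Btnl2, a butyrophilin-like gene expressed by gut epithelium, had signals of 271.1 and 104.4 in mutants and 91.2 and 47.5 in controls, a difference of 1.31 (SE 0.42; limma, adjusted p = 0.768) with no overlap, which 17.3% of all probe sets showed with mutants higher. Cdh1, the gene of E-cadherin to which CD103 binds, differed by -0.63 (SE 0.34), the chemokine gene Cxcl16 by 0.77 (SE 0.51) and the interleukin 15 receptor gene Il15ra by 0.63 (SE 0.46), and the groups overlapped for these 3 genes.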
